A study of Homo sapiens with 6 samples.

Results

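The 10 genes described here encode the histone and the enzymes, readers and effectors of γ-H2AX signalling at DNA breaks: H2AFX, ATM, ATR, CHEK1, CHEK2, MDC1, RNF8, RNF168, TP53BP1 and RIF1. They were chosen by gene name from a count table of 58735 genes, in which H2AX carries its older symbol H2AFX. They were grouped by their known roles, and the choice was made with earlier results of these data known. All 10 passed the filter on low counts, as did 17574 genes in all. RNA sequencing was performed on a colorectal cancer cell line that had received no treatment, so every value is from cells that were not irradiated. The 3 control libraries are labelled CNOT7 control and the 3 knockdown libraries CNOT7 knockdown, and the knockdown came from a stably expressed shRNA. CNOT7 is a deadenylase of the CCR4-NOT complex, which shortens the poly(A) tails of mRNAs. The labels name the line SW480 and the study's text names HCT116 for the RNA sequencing, and 2 shRNAs against CNOT7 were designed, without a statement of which one these libraries carry. The labels also do not say that the libraries of a group came from separate cultures, so the p-values measure the spread between these libraries, which may be technical.

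When a chromosome breaks, the kinase ATM, and ATR where single-stranded DNA is exposed, phosphorylates the histone variant H2AX near its C-terminus, and the modified form is called γ-H2AX. MDC1 binds γ-H2AX and brings in RNF8, a ubiquitin ligase whose product recruits a further ligase, RNF168. RNF168 ubiquitylates H2A, which 53BP1 (gene TP53BP1) reads, and 53BP1 with RIF1 holds back the resection of the broken ends and so favours end joining. CHEK2 and CHEK1 are the checkpoint kinases that carry the signal of ATM and of ATR, respectively, to the cell cycle. The mark itself is a protein modification, and RNA counts measure only the messages for the proteins that write, read and relay it.

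The sequence that gives the pathway its name is shown first, because it is the site which ATM and ATR phosphorylate. The last 30 bases of the H2AFX coding sequence lie in its single exon, on the reverse strand of GRCh38 at chr11:119094963-119094992, and the coding sequence has 143 codons before the stop. The capitals mark the codons of serine 139, counted without the initiator methionine, and of the glutamine after it, the serine-glutamine pair these kinases recognise.
H2AFX coding end: aaggccacccaggccTCCCAGgagtactaa

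Sequencing depth was 23788451 to 25982493 counts in the control libraries and 27523812 to 29104872 in the knockdown libraries. CNOT7 was measured at 169.1, 191.1 and 175.8 CPM (the count scaled to a common library total with TMM factors) in the control libraries and at 43.4, 47.2 and 38.6 CPM in the knockdown libraries, so that 24.1% of its message was left. Its log2 fold change was -2.05 (SE 0.0734, adjusted p = 2.64e-12, edgeR quasi-likelihood test). Of 10 markers of colorectal epithelium, 7 stood above 1 CPM in every library, among them the epithelial adhesion gene EPCAM and the intestinal regulator CDX2, while KRT20, CDX1 and LGALS4 did not. Markers of leukocytes, endothelium and fibroblasts summed to 11.5 to 15.2 CPM in control and 16.1 to 16.7 CPM in knockdown libraries, with 3 of the 12 above 1 CPM in every library and COL3A1 and DCN at 0 counts. Control 2 and knockdown 2 stood apart from the other libraries of their groups. Over the fifth of genes lowest in GC content their median deviation from the group mean was 0.08 and 0.10 on the log2 scale, and over the fifth of genes highest in GC content it was -0.10 and -0.11.

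Among the 10 genes, H2AFX and ATR fell in the knockdown libraries and CHEK2 rose, with adjusted p-values below 0.05 in the quasi-likelihood test of edgeR, adjusted by Benjamini-Hochberg over all tested genes. That makes 3 of 10, where 25.2% of all tested genes passed the same test, so the share among the 10 genes is near that of the table as a whole. For single directions, 11.9% of all tested genes fell and 13.3% rose (2095 and 2329 genes), a split that became 3329 and 1871 with the trend with gene length removed and 1539 and 2809 with upper-quartile factors. The log2 fold change was below 0 for 7 of the 10 genes, with a median of -0.07, beside a median of 0.0039 over all tested genes. Under 17 other settings of the processing, 6 to 9 of the 10 were below 0. The 3 control and the 3 knockdown values did not overlap for 3 of the 10 genes, H2AFX, CHEK2 and TP53BP1, and 38.8% of all tested genes were separated in this way. In these bulk libraries, a smaller number of cells in a given state and less RNA in each cell cannot be told apart.

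**Figure D1:**
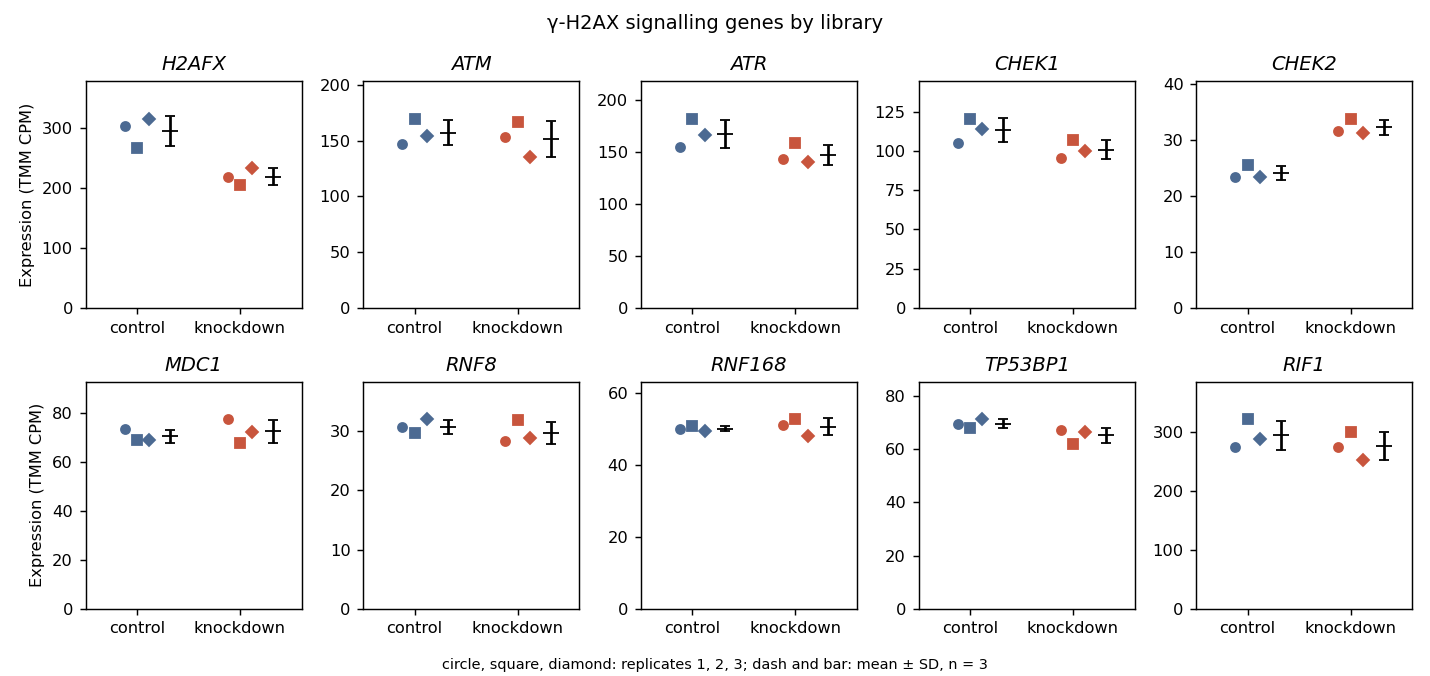
TMM-normalised CPM (vertical axes, each starting at 0) of the 10 genes in the 3 control (blue) and 3 knockdown (red) libraries, with the mean ± SD beside each group. H2AFX lies at 267.1 to 316.1 CPM in control and 205.8 to 233.6 CPM in knockdown libraries, and CHEK2 at 23.3 to 25.6 and 31.4 to 33.8 CPM.

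H2AFX (ENSG00000188486, chr11:119093854-119095467 of GRCh38, the build of all gene positions given here, reverse strand), the substrate of the pathway, measured 304.0, 267.1 and 316.1 CPM in control 1, 2 and 3, and 219.0, 205.8 and 233.6 CPM in knockdown 1, 2 and 3. Every knockdown library lay below every control library, and replicate 2 was the lowest of both groups. The log2 fold change was -0.43 (SE 0.0651, adjusted p = 1.08e-04), a change of -25.8% with a 95% interval from -32.5% to -18.4%. H2AFX is also the shortest of the 10 genes, with 1614 exonic bases, and has the highest GC content, 66.9%. Under the 17 other settings of the processing, which included the removal of trends with GC content and length, its log2 fold change stayed between -0.50 and -0.37 and passed the test each time. No other annotated gene shares exonic bases with H2AFX. The gene is known to give rise to both a polyadenylated mRNA and an mRNA that ends in the stem-loop of replication-dependent histone genes. A count per gene does not separate these forms, and how much of each the libraries captured was not tested.

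Of the 5 other H2A variants listed, 3 fell and 0 rose by edgeR, with 0 rising also at an unadjusted p below 0.05 and by DESeq2. Among all tested genes, 11.9% fell and 13.3% rose by edgeR. Without knockdown 2, 1 of the 5 rose, and without both replicate 2 libraries 1 was higher at an unadjusted p below 0.05. H2AFZ, which encodes H2A.Z, a variant found at promoters, changed by -0.29 (SE 0.0498, adjusted p = 3.21e-04) on the log2 scale. H2AFY, encoding macroH2A1, changed by -0.21 (SE 0.0492, adjusted p = 0.00392), and H2AFV, the second gene for H2A.Z, by -0.16 (SE 0.0493, adjusted p = 0.0231). H2AFY2 and H2AFJ did not pass the test, with log2 fold changes of -0.06 and 0.14, and H2AFV lost the call in 6 of the 17 other settings. H2AFX therefore moved in the same direction as H2AFZ and H2AFY, both of which passed the test under all 17 other settings. The ratio of H2AFX to the sum of these 5 variants, both in CPM, was 0.338, 0.301 and 0.358 in control libraries and 0.283, 0.270 and 0.301 in knockdown libraries. The lowest control ratio (0.300896) and the highest knockdown ratio (0.300665) nearly met. The log2 difference was -0.22, with a two-sided exact permutation p = 0.1, the smallest that 3 against 3 libraries allow (0.167 after adjustment over the 5 ratios computed).

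Of the kinases that phosphorylate H2AX, ATR fell by a small amount and ATM did not pass the test. ATM (chr11:108222484-108369102, forward strand), which answers double-strand breaks, measured 147.2, 169.5 and 154.6 CPM in control and 153.1, 166.6 and 134.9 CPM in knockdown libraries. The groups overlapped throughout. Its log2 fold change was -0.05 (SE 0.0723, adjusted p = 0.653), and the 95% interval of the change ran from -13.2% to 7.20%. ATR (chr3:142449235-142578826, reverse strand), which answers stalled replication forks, measured 154.8, 181.6 and 165.7 CPM in control and 143.3, 158.2 and 140.0 CPM in knockdown libraries. The highest knockdown library lay above the lowest control library, so the groups overlapped. ATR fell by 0.19 on the log2 scale (SE 0.0655, adjusted p = 0.0466), a change of -12.1% with an interval from -20.1% to -3.23%. This call sat next to the threshold: it was lost without control 2 (adjusted p = 0.179), without control 3 (0.106), without knockdown 1 (0.142) and without knockdown 3 (0.131), and also with upper-quartile factors (0.119) and with the trend with abundance removed (0.141). ATR is an AT-rich gene (38.7% GC), and both replicate 2 libraries, which ran high in such genes, held its highest values. Without both of them ATR fell by 0.18 (adjusted p = 0.00781).

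Set against each other within a library, ATM over ATR was 0.950, 0.934 and 0.933 in control and 1.07, 1.05 and 0.964 in knockdown libraries. All knockdown ratios lay above all control ratios, by 0.13 on the log2 scale (two-sided exact permutation p = 0.1, the smallest possible, 0.167 after adjustment). The other H2AX kinase, DNA-PKcs (PRKDC), which also drives end joining, measured 1004 ± 44.9 CPM in control and 891 ± 32.4 CPM in knockdown libraries (mean ± SD, n = 3 each) and fell with a log2 fold change of -0.17 (SE 0.0498, adjusted p = 0.0169). That call was lost in 5 of the 17 other settings, among them without control 2 (adjusted p = 0.0663), without control 3 (0.0520) and without knockdown 3 (0.0623), and with the trend with abundance removed the value was -0.10 (adjusted p = 0.133).

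Of the checkpoint kinases, CHEK2 rose and CHEK1 did not pass the test. CHEK2 (chr22:28687743-28742422, reverse strand), the checkpoint kinase activated by ATM, measured 23.3, 25.6 and 23.5 CPM in control and 31.7, 33.8 and 31.4 CPM in knockdown libraries. Every knockdown library stood above every control library, and the spread within each group was small beside the gap. The log2 fold change was 0.42 (SE 0.0759, adjusted p = 5.56e-04), a change of 33.8% with an interval from 19.8% to 49.5%. It passed the test under all 17 other settings, between 0.36 and 0.46. CHEK2 shares 6.70% of its exonic bases with HSCB on the opposite strand, and HSCB did not pass the test (log2 fold change 0.21, adjusted p = 0.366). Of annotated pseudogenes named CHEK2P and a number, CHEK2P2 received 1 count over the 6 libraries and CHEK2P3, CHEK2P4 and CHEK2P5 received 0. Copies under other names were not searched, and how reads matching more than 1 place were counted is not stated. The part of such copies in the CHEK2 counts was not tested.

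CHEK1 (chr11:125625136-125676255, forward strand), the checkpoint kinase activated by ATR, measured 105.0, 120.3 and 113.7 CPM in control and 95.6, 107.2 and 99.7 CPM in knockdown libraries. Knockdown 2 lay above control 1, so the groups overlapped. Its log2 fold change of -0.16 (SE 0.0641, adjusted p = 0.0700) did not pass the test, and the interval of the change ran from -18.8% to -2.03%. Without both replicate 2 libraries the value was the same, -0.16, and passed (adjusted p = 0.0244). The ratio of CHEK2 to CHEK1 in CPM was 0.222, 0.213 and 0.206 in control libraries and 0.332, 0.316 and 0.315 in knockdown libraries. The 2 groups were well apart, with a log2 difference of 0.58 (two-sided exact permutation p = 0.1, the smallest possible, 0.167 after adjustment).

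**Figure D2:**
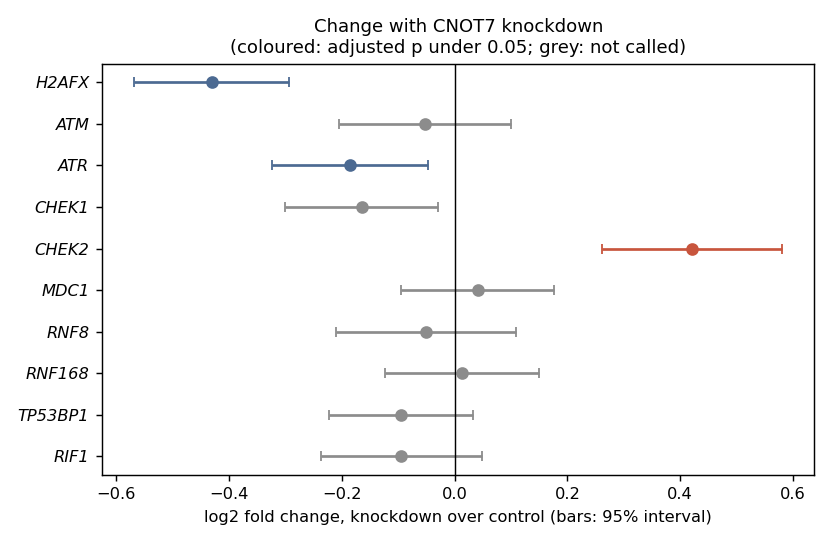
Log2 fold change of each of the 10 genes in knockdown over control libraries (horizontal axis), with 95% intervals from the edgeR fit and colour for genes at an adjusted p-value below 0.05. H2AFX at -0.43 and CHEK2 at 0.42 lie farthest from 0, ATR lies at -0.19, and the other 7 lie between -0.16 and 0.04.

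The promoters of the genes with the steadiest changes, H2AFX lower and CHEK2 higher, are given here as the 250 bases before the gene start in RefSeq (GRCh38.p14), 5′ to 3′ in the direction of transcription. Capitals mark CCAAT or its reverse complement ATTGG, the word bound by the factor NF-Y. The H2AFX window is chr11:119095466-119095715 and the CHEK2 window chr22:28741821-28742070, both on the reverse strand.
H2AFX promoter: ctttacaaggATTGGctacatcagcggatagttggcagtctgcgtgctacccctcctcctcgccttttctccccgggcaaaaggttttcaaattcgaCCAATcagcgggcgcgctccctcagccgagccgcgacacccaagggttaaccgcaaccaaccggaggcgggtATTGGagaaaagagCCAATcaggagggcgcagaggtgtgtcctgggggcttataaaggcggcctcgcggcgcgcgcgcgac
CHEK2 promoter: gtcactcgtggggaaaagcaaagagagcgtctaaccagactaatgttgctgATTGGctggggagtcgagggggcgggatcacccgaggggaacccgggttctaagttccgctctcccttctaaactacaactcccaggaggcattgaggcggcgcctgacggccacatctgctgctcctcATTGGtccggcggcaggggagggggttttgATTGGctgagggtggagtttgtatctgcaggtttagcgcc
The word occurred 4 times before H2AFX and 3 times before CHEK2. Of 35116 promoter windows of this length, 32% held CCAAT at least once, 2.93% held it 3 or more times and 0.874% held it 4 or more times. MDC1 had 2 matches, ATM, CHEK1, RNF8, TP53BP1 and RIF1 had 1 each, and ATR and RNF168 had 0. The E2F words TTTCCCGC, TTTGGCGC and TTTCGCGC, searched on both strands, were in 0 of the 10 windows and in 2.32% of all windows. Other forms of the E2F site were not searched, so the windows may hold such forms. H2AFX and CHEK2, the genes with the most matches, changed in opposite directions, and these letter matches are a description of the windows only.

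The mediator and the ubiquitin ligases showed no change that passed the test. MDC1 (chr6:30699807-30717889, reverse strand), the scaffold that binds γ-H2AX, measured 73.6, 68.8 and 69.2 CPM in control and 77.5, 67.8 and 72.4 CPM in knockdown libraries. Knockdown 1 and knockdown 2 were the highest and the lowest of all 6, so the control values lay within the knockdown range. The log2 fold change was 0.04 (SE 0.0645, adjusted p = 0.699), with an interval of the change from -6.39% to 13.0%. RNF8 (chr6:37353972-37394738, forward strand), the first ligase, measured 30.7, 29.6 and 32.0 CPM in control and 28.4, 31.9 and 28.8 CPM in knockdown libraries. Its groups overlapped and its log2 fold change was -0.05 (SE 0.0758, adjusted p = 0.678). RNF168 (chr3:196468783-196503768, reverse strand), the ligase that acts on H2A, measured 50.0, 50.9 and 49.4 CPM in control and 51.0, 52.6 and 48.0 CPM in knockdown libraries. The control values again lay within the knockdown range, and the log2 fold change was 0.01 (SE 0.0646, adjusted p = 0.912). For RNF8 the interval of the change ran from -13.6% to 7.83% and for RNF168 from -8.20% to 10.9%, so changes of the size seen for H2AFX and CHEK2 lie outside both. The ratio of RNF168 to RNF8 differed by 0.06 on the log2 scale (two-sided exact permutation p = 0.4).

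The effectors TP53BP1 and RIF1, which act together at unresected ends, did not pass the test. TP53BP1 (chr15:43403061-43510728, reverse strand) measured 69.7, 68.2 and 71.3 CPM in control and 67.2, 62.0 and 66.7 CPM in knockdown libraries. All knockdown values lay below all control values, by a margin smaller than the spread within the knockdown group. The log2 fold change of -0.09 (SE 0.0608, adjusted p = 0.282) did not pass the test. It shares 28.7% of its exonic bases with TUBGCP4 on the opposite strand (log2 fold change -0.01, adjusted p = 0.924). The library kit does not mark strand, so reads from these shared bases cannot be assigned to either gene by strand. RIF1 (chr2:151409883-151508013, forward strand) measured 273.2, 320.6 and 286.9 CPM in control and 273.6, 299.1 and 252.1 CPM in knockdown libraries. The groups overlapped, with replicate 2 highest in both, and the log2 fold change was -0.09 (SE 0.0677, adjusted p = 0.340). RIF1 depended on single libraries, with -0.03 without control 2 and -0.16 without knockdown 2, where TP53BP1 stood at -0.11 and -0.06. With the trends with GC content and length removed, both genes passed the test, TP53BP1 at -0.15 (adjusted p = 0.0170) and RIF1 at -0.12 (adjusted p = 0.00638). The intervals of the change were -14.3% to 2.33% for TP53BP1 and -15.2% to 3.39% for RIF1. The ratio of RIF1 to TP53BP1 differed by 0.0008 on the log2 scale (two-sided exact permutation p = 1).

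Levels were compared between genes as CPM per kilobase of exonic length. This length joins the exons of all annotated transcripts, 23972 bases over 30 transcripts for ATM and 5347 over 2 for RNF168. It can exceed the length of the mRNA present, and by an amount that differs between genes. The order below therefore holds for this measure only. In control libraries H2AFX stood at 183.2 ± 15.8 CPM per kilobase (SD, n = 3), more than any of the other 9 genes. CHEK1 (17.2 ± 1.17) and RIF1 (16.2 ± 1.34) followed with overlapping ranges, and then ATR at 13.4 ± 1.08. RNF168 (9.37 ± 0.141), MDC1 (8.75 ± 0.331) and ATM (6.55 ± 0.475) came next, with no overlap between neighbours. CHEK2 (5.37 ± 0.280) and TP53BP1 (5.37 ± 0.118) overlapped, and RNF8 (4.68 ± 0.181) was lowest. H2AFX mRNA was thus far more abundant, per length, than the messages for the enzymes and readers that act on the histone. In knockdown libraries H2AFX stood at 136.0 ± 8.61 and kept the highest level, and the order of the others differed at CHEK2, which at 7.19 ± 0.296 stood above ATM (6.32 ± 0.662) and TP53BP1 (5.02 ± 0.220). There, CHEK1 and RIF1, RNF168 and MDC1, and TP53BP1 and RNF8 were neighbours with overlapping ranges.

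The further genes of the pathway were read from 7 lists of 100 genes, of which 96 passed the filter. Of these, 25 fell and 8 rose, 34.4% beside 25.2% of all tested genes, and their median log2 fold change was -0.07. The lists were written with earlier results of these data known, so this share is a description only. The call held under all 17 other settings for 16 of the 33, 13 lower and 3 higher, and none of the 33 changed sign. The count was 20 without control 3 and 21 without knockdown 1.

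**Figure D3:**
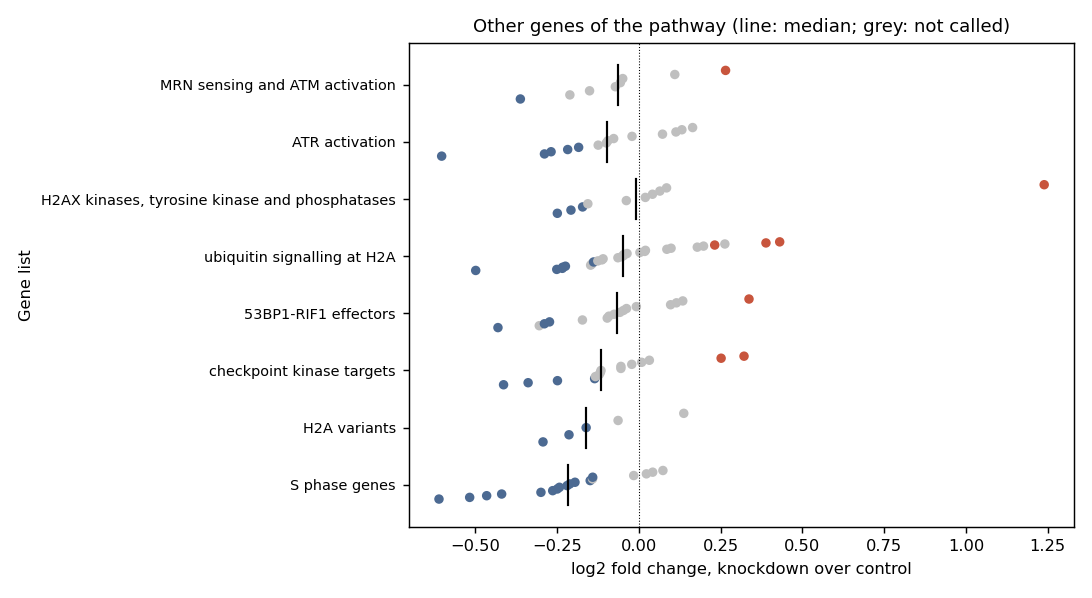
Log2 fold change in knockdown over control libraries (horizontal axis) of each tested gene in the 7 pathway lists and a list of S phase genes, with blue for genes that fell, red for genes that rose, grey for the others and a black line at each list's median. CLSPN lies at -0.60 in the ATR list and CDKN1A at 0.32 among the checkpoint targets. Of 18 S phase genes, 13 fell, beside 11.9% of all tested genes.

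Around ATM, 1 of 8 genes of the list of MRN sensing and ATM activation rose and 1 fell (median -0.06). MRE11, the nuclease of the MRN complex that senses ends, rose from 93.4 ± 6.29 to 112.2 ± 4.21 CPM, a log2 fold change of 0.26 (SE 0.0617, adjusted p = 0.00432). RAD50, its partner, changed by -0.36 (SE 0.105, adjusted p = 0.0168), but 79.7% of its exonic bases are shared with an overlapping gene, so its value is uncertain, and the call was lost in 3 of the 17 other settings. Around ATR, 5 of 14 genes fell and 0 rose by edgeR (median -0.10), with the same counts at an unadjusted p below 0.05 and by DESeq2. In 3 of the 17 other settings 1 gene of the list rose: with the replicate block, without control 2 and without both replicate 2 libraries. CLSPN encodes claspin, which ATR activation needs to hand the signal to CHEK1, and it measured 45.9 ± 2.16 CPM in control and 30.2 ± 1.99 CPM in knockdown libraries (mean ± SD, n = 3 each), a log2 fold change of -0.60 (SE 0.0735, adjusted p = 1.16e-05). TIMELESS, of the fork protection complex, changed by -0.29 (SE 0.0506, adjusted p = 4.23e-04), and RHNO1, which works with the 9-1-1 clamp, by -0.27 (SE 0.0624, adjusted p = 0.00424). TOPBP1, the activator of ATR, changed by -0.22 (SE 0.0603, adjusted p = 0.0131) and RPA2, a subunit of the single-strand binding protein, by -0.18 (SE 0.0653, adjusted p = 0.0471), and these last 2 calls were lost in 2 and 7 of the 17 other settings. ATR, CHEK1 and CLSPN had values below 0, CHEK1 without passing the test, while CHEK2 rose. ATM also had a value below 0. Of the 2 lists, 6 of 8 genes around ATM and 10 of 14 around ATR lay below 0, with 2 and 4 above. Over all 17574 tested genes, 8660 lay below 0 and 8914 above, and 11.9% fell and 13.3% rose by the test.

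Among kinases and phosphatases of H2AX, 3 of 10 tested genes fell and 1 rose (median -0.01). BAZ1B, the kinase of the tyrosine at the end of H2AX, changed by -0.25 (SE 0.0544, adjusted p = 0.00264). PPP4C, a phosphatase that removes the mark, changed by -0.21 (SE 0.0583, adjusted p = 0.0142). EYA2, a tyrosine phosphatase, rose by 1.24 (SE 0.332, adjusted p = 0.0109), at a level of only 0.789 ± 0.479 CPM in control and 1.88 ± 0.35 CPM in knockdown libraries (mean ± SD, n = 3 each). It stood at 1.85 without control 1, and the call was lost without control 3 (0.91, adjusted p = 0.0592) and without knockdown 1 (1.07, adjusted p = 0.0680). PPP4C lost its call in 3 of the 17 other settings. PPM1D, another phosphatase of γ-H2AX, did not pass the test (0.04).

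Among genes of ubiquitin signalling at H2A, 6 of 28 tested genes fell and 3 rose (median -0.05). BMI1, of the Polycomb ligase for H2A, changed by -0.50 (SE 0.0982, adjusted p = 0.00117), and BRCA1, of a ligase that favours resection, by -0.23 (SE 0.0602, adjusted p = 0.00839). BRCC3 (-0.23), the deubiquitylase of the BRCA1-A complex, OTUB1 (-0.22), an inhibitor of the E2 enzyme UBE2N, L3MBTL2 (-0.25), a substrate of RNF8, and VCP (-0.14), an unfolding ATPase, passed the test with lower values as well. VCP lost the call in 7 of the 17 other settings, 5 of them with 1 library left out, BRCC3 and L3MBTL2 in 3 each and OTUB1 in 1. OTUB2, a deubiquitylase, rose by 0.43 (SE 0.0917, adjusted p = 0.00223), RNF169, a reader that competes with 53BP1, by 0.23 (SE 0.0692, adjusted p = 0.0205), and ABRAXAS1, a scaffold of the BRCA1-A complex, by 0.39 (SE 0.123, adjusted p = 0.0282). These 3 share 15.1%, 27.9% and 25.2% of their exonic bases with genes on the opposite strand, and the library kit does not mark strand. Over the 6 libraries DDX24 received 38747 counts beside 2486 for OTUB2. XRRA1 received 3166 beside 5185 for RNF169, and MRPS18C 1443 beside 2432 for ABRAXAS1. The part of these neighbours in the 3 rises was not tested. ABRAXAS1 lost the call in 6 of the 17 other settings (adjusted p up to 0.162, without control 3) and RNF169 in 5. UBE2N, the E2 enzyme of RNF8, did not pass the test (-0.04), and neither did HERC2 (-0.14), which binds RNF8.

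Among effectors of 53BP1 and RIF1 and their antagonists, 3 of 16 tested genes fell and 1 rose (median -0.07). NUDT16L1, known as TIRR and an inhibitor that holds 53BP1 off chromatin, changed by -0.43 (SE 0.104, adjusted p = 0.00546). DYNLL1, a light chain that binds 53BP1, changed by -0.27 (SE 0.0545, adjusted p = 0.00131), and RBBP8, known as CtIP, which starts resection, by -0.29 (SE 0.0702, adjusted p = 0.0057). STN1, of the CST complex that fills in resected ends, rose by 0.34 (SE 0.0972, adjusted p = 0.0169), a call lost without control 3 (adjusted p = 0.0882) and without knockdown 1 (0.115). PAXIP1, which binds 53BP1 (-0.17), and SHLD2 of shieldin (-0.09) did not pass the test.

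Among targets of the checkpoint kinases, 4 of 15 genes fell and 2 rose (median -0.12). CDC25A, the phosphatase that CHEK1 marks for destruction, changed by -0.41 (SE 0.0635, adjusted p = 1.23e-04). PKMYT1, a kinase that restrains CDK1, changed by -0.34 (SE 0.0716, adjusted p = 0.00209), with 24.5% of its exonic bases shared with PAQR4 on the opposite strand. E2F1 (-0.25), a transcription factor of S phase entry, passed the test too, a call lost without control 3 (adjusted p = 0.0593). TRIM28, a heterochromatin factor that ATM phosphorylates, changed by -0.14 (SE 0.0486, adjusted p = 0.0496), next to the threshold, and lost the call in 8 of the 17 other settings, 5 of them with 1 library left out. CDKN1A, the p21 inhibitor of CDKs, rose by 0.32 (SE 0.0636, adjusted p = 0.00124), and MDM4, the partner of MDM2, by 0.25 (SE 0.0723, adjusted p = 0.0166), the latter call being lost in 3 of the 17 other settings. MDM2 (-0.12), a ubiquitin ligase, did not pass the test.

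In a list written with earlier results of these data known, 13 of 18 S phase genes fell, as H2AFX did, and 0 rose by edgeR. Of all tested genes, 11.9% fell and 13.3% rose. The median of the list was -0.22 on the log2 scale, and DESeq2 gave the same counts for the list. At an unadjusted p below 0.05, 14 fell and 0 rose. The summed level of these 18 was 3919 to 4002 CPM in control libraries and 3341 to 3414 CPM in knockdown libraries, and all 18 were above 1 CPM in every library. The falls of largest size were in CCNE2 (-0.61), encoding cyclin E2, UHRF1 (-0.52), which maintains DNA methylation, RRM2 (-0.47), of ribonucleotide reductase, and CDC6 (-0.42), of the replication licensing machinery. Under the other settings, 9 to 14 of the 18 fell and 0 rose. Its part in the lower H2AFX, ATR and CLSPN values was not tested.

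The replicate 2 values of the 10 genes were set beside the genes' base composition, and whether GC content accounts for them was not tested. In both groups replicate 2 held the highest value of ATM, ATR, CHEK1, CHEK2, RNF168 and RIF1, which have 38.7% to 46.5% GC, and the lowest value of H2AFX, MDC1 and TP53BP1, with 66.9%, 53.6% and 48.3% GC. RNF8, at 47.6% GC, was lowest in control 2 and highest in knockdown 2. Without both libraries, 4 of the 10 genes passed the test, beside 27.4% of all tested genes. The 4 were H2AFX (-0.45, adjusted p = 1.13e-06), CHEK2 (0.43, adjusted p = 4.39e-04), ATR (-0.18) and CHEK1 (-0.16). H2AFX and CHEK2 were the genes whose call held in every setting tried.

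**Figure D4:**
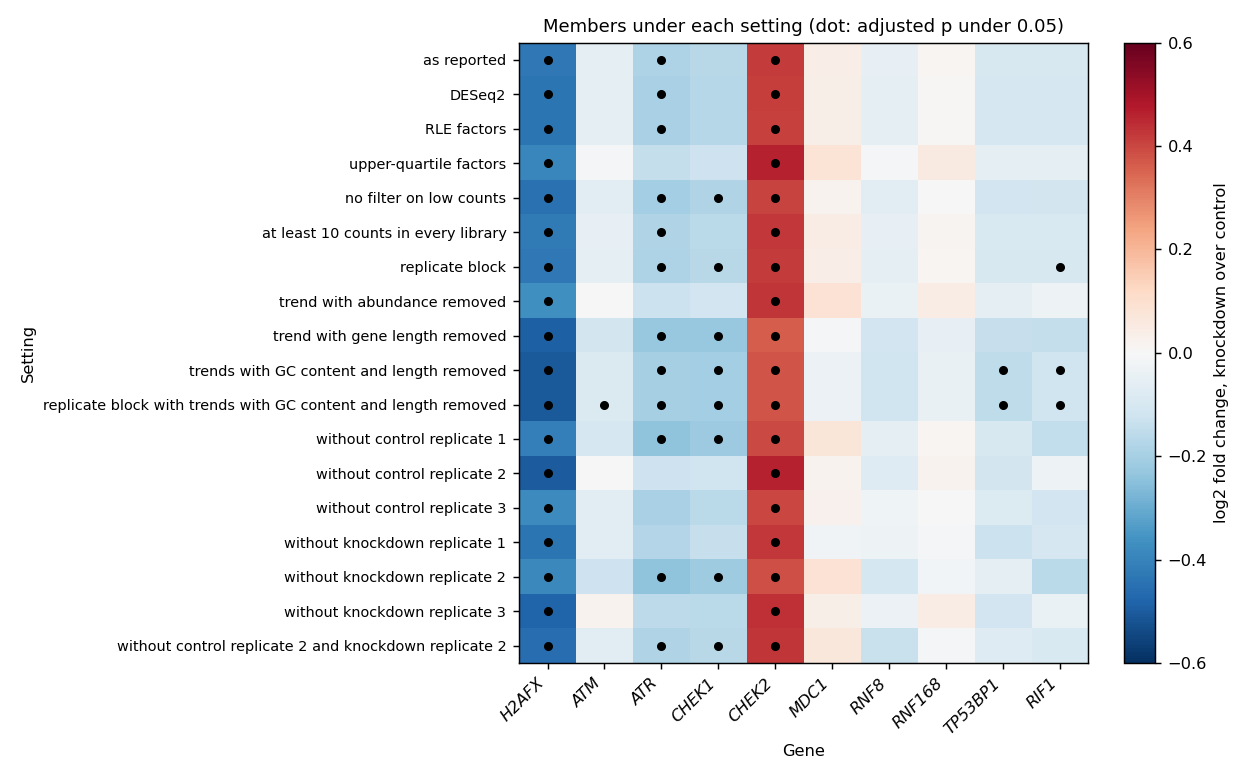
Log2 fold change (colour) of the 10 genes (columns) as reported and under 17 other settings of the processing (vertical axis), with a dot where the adjusted p-value was below 0.05. H2AFX (-0.50 to -0.37) and CHEK2 (0.36 to 0.46) carry a dot throughout, and ATR lacks it in 6 settings.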

How the data were processed

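Total RNA was extracted with TRIzol and made into libraries with a NEBNext Ultra RNA kit, which does not mark strand. The authors deposited raw counts per gene for 6 libraries. Their processing notes name CASAVA 1.8, fastp, HISAT2 2.0.5, featureCounts 1.5.0-p3, DESeq2 1.20.0 and GRCh38, and the strand setting is not given in the sources used here. Columns from other samples numbered 0. The 10 genes and the pathway lists were chosen with earlier results of these data known, and the genes named are all 10, CNOT7 and the list genes that passed the test, with up to 4 partners per list that did not.

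The test was run with edgeR 4.0.16 (R 4.3.3): filterByExpr, TMM factors, the quasi-likelihood test between the 2 groups with no replicate term, and Benjamini-Hochberg adjustment at 0.05 with no minimum fold. Standard errors were taken as the size of the log2 fold change over the root of F. Counts of replicates differed by more than sampling noise. Alternatives were DESeq2 1.42.0, RLE and upper-quartile factors, no filter on low counts, a minimum of 10 counts per library, a replicate block, removal of trends with abundance or length (loess, span 0.3), and each library left out. Removal of GC content and length trends, also with the block, and leaving out both replicate 2 libraries were added after seeing the data. In counts simulated for this comparison over 17574 genes, the test recovered 58 of 87 changes of 0.5 and 99 of 113 changes of 1 (log2), with 3 false calls. The simulation changed 200 genes, gave every gene the same dispersion and held no trend of replicate 2 with GC content. Its recovery and its false calls therefore do not carry over to these libraries. Ratios within a library were tested by two-sided exact permutation. Positions came from GENCODE 29, which held all 58735 identifiers, and promoters from RefSeq.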

Additional observations from a re-analysis of the deposited data

How the results depend on the processing

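CNOT7, H2AFX and CHEK2 kept their direction and passed the test under all 17 alternatives, CNOT7 between -2.13 and -1.98 on the log2 scale. Of 170 comparisons of a gene of the 10 with an alternative, 136 kept direction and side of the threshold, 6 lost the call (all ATR), 14 gained one and 14 changed sign, each of these without a call. The sign changed for ATM with the abundance trend removed (0.0021), without control 2 (0.0040) and without knockdown 3 (0.020), and its values with 1 library left out ran from -0.13 to 0.020. It changed for MDC1 with the length trend (-0.014) or the GC and length trends removed (-0.035 alone and -0.035 with the replicate block), and without knockdown 1 (-0.019), in a range from -0.019 to 0.086 with 1 library left out. It changed for RNF168 with no filter (-0.0042), the length trend removed (-0.051), the GC and length trends removed (-0.046 alone and -0.046 with the block), without knockdown 1 (-0.0048), without knockdown 2 (-0.018) and without both replicate 2 libraries (-0.0071), in a range from -0.018 to 0.044 with 1 library left out. The cause was not tested. Genes called among the 10 numbered 5 with the replicate block, 6 with GC and length trends removed and 7 with both, and 2 to 4 with 1 library left out. The shares of all tested genes called were 37.0%, 40.2% and 43.3% in the first 3 of these settings, and 16.8% to 25.5% with 1 library left out. Over all genes, 4424 calls became 7059 with GC and length trends removed and 7611 with the block added, and 3030 to 4542 with 1 library left out. Called pathway genes, 33, became 56 and 61, and 20 to 40 with a library, or both replicate 2 libraries, left out. The share of all calls that were higher was 52.6%, and 64.6% with upper-quartile factors, 36.0% with the length trend removed, 34.4% with GC and length removed and 33.9% with the block added. Deviations of same-numbered libraries correlated at 0.165, 0.528 and 0.0485 over genes, and control 1 correlated best with knockdown 3 (0.445), so the numbers were not taken as pairs. With the replicate block alone, 6508 genes and 48 pathway genes were called, and CHEK1 and RIF1 were added to the 3 of the 10. With GC and length trends removed TP53BP1 (adjusted p = 0.0170) joined these, and with the block as well ATM did (adjusted p = 0.0365). With 3 libraries a group, the intervals of the 7 genes without a call reach from -18.8% (CHEK1) to 13.0% (MDC1).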
